A study of Homo sapiens with 8 samples.

Results

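The restriction factors SAMD9L, SAMD9, RTP4, XAF1, IFI6, IFI35, IFI44 and IFI44L were taken from the deposited expression table by gene symbol. Of these 8 genes, 6 are listed among the 16525 genes of the table, and IFI44 and IFI44L were not analysed here. The cells were EndoC-βH5, an established human beta-cell line, and they were left untreated (control, 4 libraries) or exposed for 48 h to 3 cytokines together (cytokine, 4 libraries). The mixture held 50 U/mL of IL-1β, with IFNγ and TNFα at 1000 U/mL each. Both groups come from this 1 line. The labels do not say whether the 4 libraries of a group came from separate cultures, so p-values measure the spread between these libraries. RNA levels are given as CPM, the reads on a gene scaled to a library of 1000000 reads. The 4 control and 4 cytokine columns share name parts that form 4 pairs, called A, B, C and D here. A and B carry the ending 21 and C and D the ending 22 in the column names.

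Restriction factors are cell proteins that block steps of viral replication, and many are encoded by interferon-stimulated genes. Type I interferons act mainly through a complex that holds STAT2 and IRF9 and binds the interferon-stimulated response element (ISRE) in promoters. IFNγ acts mainly through the gamma-activated site (GAS) in promoters and through IRF1, which binds ISRE-like sequences. IL-1β and TNFα act mainly through NF-κB. SAMD9L and SAMD9 are neighbouring paralogues whose large cytoplasmic proteins restrict poxviruses. RTP4 is a chaperone of G protein-coupled receptors that also binds viral RNA. XAF1 binds XIAP, an inhibitor of caspases. IFI6 is a small membrane protein that acts with the chaperone HSPA5 in the endoplasmic reticulum against flaviviruses. IFI35 forms a complex with NMI.

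The promoters of 4 of the genes are shown because the same treatment acted on all of them while their letters differ. SAMD9 and SAMD9L are a paralogue pair, and RTP4 and IFI6 hold several copies of an ISRE core. Each sequence is the 250 bases before the RefSeq start of the gene on GRCh38.p14, written 5′ to 3′ on the strand of the gene, with matches to the ISRE core GAAANNGAAA in capitals. The windows lie at chr7:93148386-93148635 (minus strand, SAMD9L), chr7:93117980-93118229 (minus strand, SAMD9), chr3:187368135-187368384 (plus strand, RTP4) and chr1:27672193-27672442 (minus strand, IFI6).
SAMD9L: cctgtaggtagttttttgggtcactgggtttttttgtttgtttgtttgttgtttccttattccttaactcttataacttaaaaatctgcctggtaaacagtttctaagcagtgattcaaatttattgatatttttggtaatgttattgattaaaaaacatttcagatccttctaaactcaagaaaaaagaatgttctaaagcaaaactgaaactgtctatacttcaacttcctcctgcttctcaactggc
SAMD9: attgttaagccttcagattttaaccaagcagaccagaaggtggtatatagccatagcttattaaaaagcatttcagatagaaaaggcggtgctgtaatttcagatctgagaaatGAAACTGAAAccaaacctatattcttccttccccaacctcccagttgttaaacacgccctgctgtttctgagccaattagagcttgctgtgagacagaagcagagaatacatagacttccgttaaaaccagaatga
RTP4: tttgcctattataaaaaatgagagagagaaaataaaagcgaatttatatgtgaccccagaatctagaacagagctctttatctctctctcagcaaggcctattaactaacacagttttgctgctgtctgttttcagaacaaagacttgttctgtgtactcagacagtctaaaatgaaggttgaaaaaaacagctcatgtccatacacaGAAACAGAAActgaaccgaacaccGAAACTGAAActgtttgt
IFI6: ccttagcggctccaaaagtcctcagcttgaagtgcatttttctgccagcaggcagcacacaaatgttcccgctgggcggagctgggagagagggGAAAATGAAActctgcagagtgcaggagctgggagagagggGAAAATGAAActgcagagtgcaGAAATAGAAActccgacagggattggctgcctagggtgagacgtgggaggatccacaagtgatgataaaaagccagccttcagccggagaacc

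Windows of 300 bases, from 250 before to 50 after each RefSeq start, were searched on both strands for the ISRE core, for the GAS letters TTCNNNGAA and for the kB motif. The ISRE core was found 1 time in SAMD9, from base -136 to -127 counted from the start. RTP4 held it 2 times, at -42 to -33 and at -18 to -9. IFI6 held it 3 times, at -156 to -147, -115 to -106 and -93 to -84. The IFI35 window held no ISRE core and 1 GAS match, TTCACGGAA, at -22 to -14. The XAF1 window at chr17:6755796-6756095 held 1 kB match, GGGGAACTCC, at -103 to -94. Another XAF1 window, at chr17:6755197-6755496, held none of the 3 motifs. None of the 3 motifs was found in the SAMD9L window, which says only that these letters are not in it. For RTP4, SAMD9, IFI6, IFI35 and the XAF1 window with the kB match, the GENCODE gene begins upstream of the RefSeq start, so that distances depend on the annotation. Of 35116 promoter windows of all genes, 3.57% held the ISRE core, 7.66% the GAS letters and 11.3% the kB motif. The ISRE core was held by 11.9% of the 1139 genes with a window that were called higher in cytokine libraries and by 3.83% of the 11736 tested genes with a window. These matches are descriptions of letters and were not tested as binding sites.

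All 6 listed restriction factors were higher in cytokine than in control libraries, and in none of them did the ranges of the 4 control and 4 cytokine libraries overlap. SAMD9L, RTP4 and XAF1 were under the authors' filter of 0.5 CPM in every control library, with maxima of 0.0199, 0 and 0.148 CPM. They could be listed only through libraries other than these controls, so the filter itself favours their separation and their calls. Calls needed a log2 fold change beyond 0.5 in size together with an adjusted p below 0.05, in limma on log2(CPM + 0.1) with Benjamini-Hochberg adjustment over all 16525 genes. By this rule 9.52% of all genes were called higher, and 10.8% of all genes had cytokine libraries above control libraries with no overlap. The median log2 fold change of the 6 genes was 4.45. The median over all genes was -0.17, and it was -0.02 after TMM scaling, a shift in which the 6 calls did not change. With TMM scaling 2154 genes were called higher and 1933 lower, beside 1574 and 2896 without it.

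**Figure D1:**
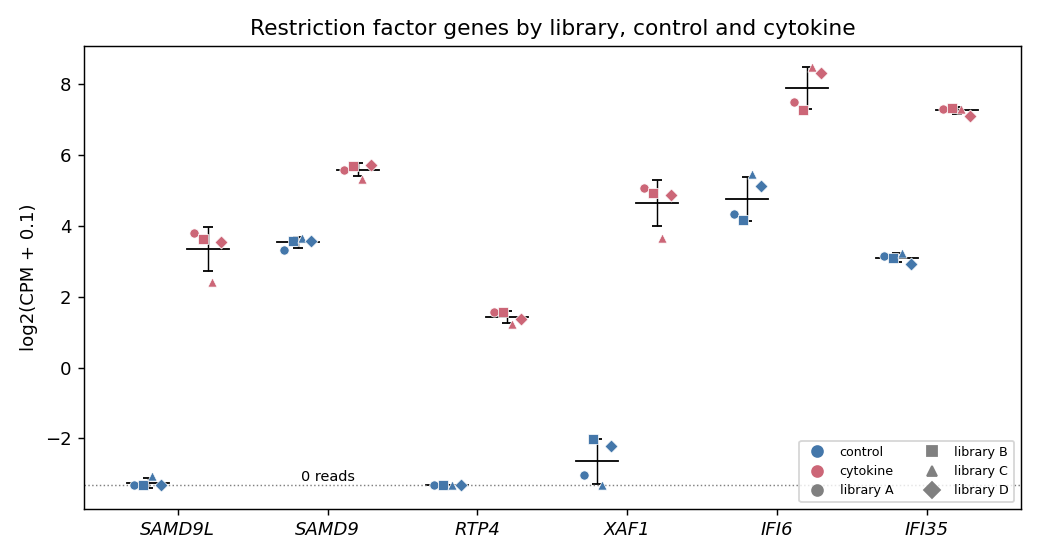
Level of each of the 6 restriction factors as log2(CPM + 0.1) in the 4 control (blue) and 4 cytokine (red) libraries, with point shapes for pairs A to D and black bars for the mean and SD. The dotted line marks 0 reads. SAMD9L, RTP4 and XAF1 lie at or near it in control libraries, and the control and cytokine points of each gene are apart.

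SAMD9L was at or near 0 in control cells and present in cytokine-treated cells. Its control values were 0, 0, 0.0199 and 0 CPM in libraries A, B, C and D, where 0.0199 CPM is 1 read. Its cytokine values were 13.8, 12.3, 5.23 and 11.5 CPM, from 260 to 649 reads per library, with a mean of 10.7 ± 3.77 CPM (SD, n = 4). The 4 cytokine libraries were all far above the 4 control libraries, and library C was the lowest of them. With 1 control read in all, the ratio of pooled levels was 2079, and its exact 95% counting interval ran from 373 to 82154. The log2 fold change in limma was 6.60 (SE 0.32, adjusted p = 1.01e-07). It depends on the number added before taking logs, being 3.47 on log2(CPM + 1) and 10.58 in edgeR on the recovered reads, and the gene was called in each case.

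SAMD9, which lies 12032 bases from SAMD9L, was already expressed in control cells. Its values were 9.92, 11.7, 12.6 and 11.7 CPM in control libraries A to D and 47.7, 51.7, 40.0 and 52.2 CPM in cytokine libraries A to D. The means were 11.5 ± 1.11 and 47.9 ± 5.62 CPM (SD, n = 4), a 4.17-fold rise. All cytokine libraries were above all control libraries, with cytokine library C again the lowest. The log2 fold change of SAMD9 was 2.05 (limma, SE 0.13, adjusted p = 1.19e-06), which was the smallest among the 6 genes in limma at log2(CPM + 0.1).

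The share of SAMD9L in the reads of the paralogue pair was higher in all cytokine libraries. SAMD9L took 0, 0, 0.158 and 0% of the reads on both genes in control libraries A to D, and 22.5, 19.2, 11.6 and 18.0% in cytokine libraries A to D. The log2 ratio of SAMD9L to SAMD9, each as CPM + 0.1, was -6.78 ± 0.119 in control and -2.23 ± 0.482 in cytokine libraries (SD, n = 4). The difference was 4.55, and it was 2.38 with 0.5 and 1.50 with 1 added to both genes. With 1 control read of SAMD9L in all, the control ratio is set by the added number, so its size and small SD are no measurement. SAMD9L could pass the authors' filter only through libraries other than these controls. The two-sided exact permutation test gave p = 0.0286, the smallest that 4 against 4 libraries allow, and adds nothing to the separation of the shares. SAMD9 was the more abundant of the pair in all 8 libraries. No stretch of 50 bases in the annotated transcripts of either gene occurs in those of another gene, so reads of 50 or more matching bases can be assigned to one or the other.

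RTP4 had 0 reads in all 4 control libraries. Its cytokine values were 2.85, 2.84, 2.23 and 2.47 CPM in libraries A to D, from 111 to 134 reads per library, with a mean of 2.60 ± 0.301 CPM (SD, n = 4). The upper limit for 0 reads was set at 3 reads per library, between 0.0587 and 0.0641 CPM here, and against this limit RTP4 was at least 40.5-fold higher. The limit covers counting error only. The log2 fold change in limma was 4.75 (SE 0.25, adjusted p = 2.18e-07), and it was 1.84 on log2(CPM + 1) and 10.07 in edgeR. RTP4 thus ranked 84 among all genes by its rise at log2(CPM + 0.1), and 2 by the rise that edgeR fitted.

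XAF1 was also close to 0 in control cells. Its control libraries A to D held 0.0214, 0.148, 0 and 0.117 CPM, which were 14 reads in all. Its cytokine libraries held 33.2, 30.5, 12.6 and 29.1 CPM, with a mean of 26.3 ± 9.31 CPM (SD, n = 4). The groups were far apart, and cytokine library C was again the lowest. The ratio of pooled levels was 365, with an exact 95% counting interval from 217 to 668. The log2 fold change was 7.27 (limma, SE 0.38, adjusted p = 2.08e-07), the highest of the 6 genes at this scale, and 4.59 on log2(CPM + 1). The antisense gene PRAL lies opposite 38.3% of the exon bases of XAF1, and the library kit kept the strand, but the sources used here give no strand setting for the counting beyond its default. Of 7177 stretches of 50 bases in XAF1 transcripts, 11 also occur in other genes.

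IFI6 had the highest level of the 6 genes. Its values were 19.9, 17.6, 43.9 and 34.3 CPM in control libraries A to D and 179.5, 153.0, 353.2 and 317.2 CPM in cytokine libraries A to D. The means were 28.9 ± 12.4 and 251 ± 99.2 CPM (SD, n = 4), an 8.66-fold rise. The groups did not overlap, and within each group libraries C and D were above A and B. The log2 fold change was 3.12 (limma, SE 0.34, adjusted p = 5.90e-05). Within pairs A to D the log2 differences of IFI6 were 3.17, 3.11, 3.01 and 3.20.

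IFI35 had the most even values. They were 8.72, 8.40, 9.22 and 7.51 CPM in control libraries A to D and 158.0, 160.5, 156.7 and 137.0 CPM in cytokine libraries A to D. The means were 8.46 ± 0.719 and 153 ± 10.8 CPM (SD, n = 4), an 18.1-fold rise. The SD of the cytokine libraries was 7.05% of their mean for IFI35, beside 39.6% for IFI6 and 35.2% for SAMD9L. The log2 fold change was 4.16 (limma, SE 0.11, adjusted p = 1.41e-09). Of 2079 stretches of 50 bases in IFI35 transcripts, 12 also occur in other genes.

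**Figure D2:**
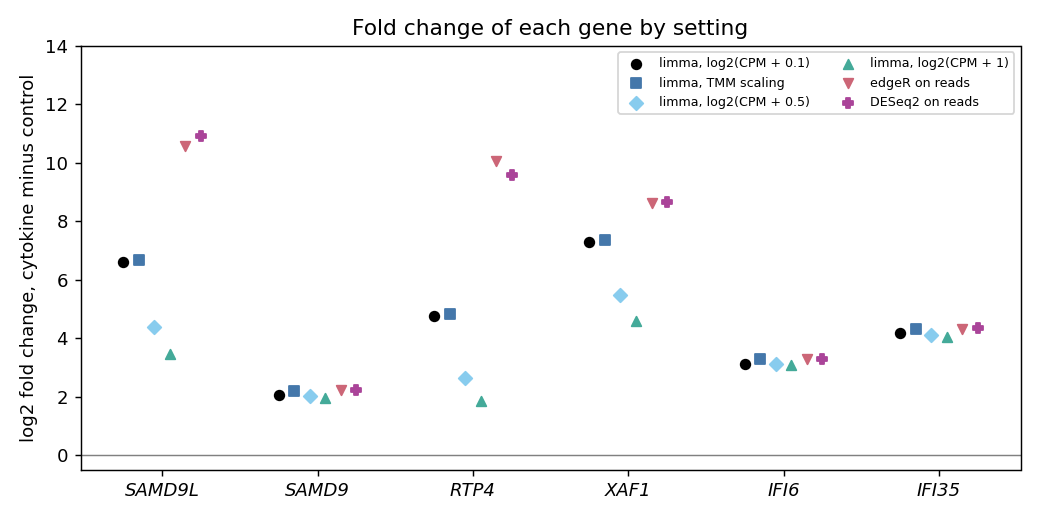
Log2 fold change, cytokine minus control, of each restriction factor from limma with 3 added numbers or TMM scaling and from edgeR and DESeq2 on recovered reads. SAMD9L spans 3.47 to 10.92 and RTP4 1.84 to 10.07, whereas the points of SAMD9, IFI6 and IFI35 lie close together.

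Levels were compared between genes per kilobase of annotated exon. In cytokine libraries the order was IFI6 at 290 ± 115, IFI35 at 77.6 ± 5.47, SAMD9 at 6.99 ± 0.820, XAF1 at 3.98 ± 1.41, RTP4 at 1.67 ± 0.194 and SAMD9L at 1.50 ± 0.529 CPM per kilobase (SD, n = 4). Neighbours in this order did not overlap over the 4 libraries, except RTP4 and SAMD9L, whose ranges of 1.44 to 1.84 and 0.734 to 1.94 CPM per kilobase did. The lowest XAF1 library was at 1.90 CPM per kilobase, so the range of XAF1 overlapped that of SAMD9L but not that of RTP4. In control libraries IFI6, at 33.5 CPM per kilobase, was followed by IFI35 at 4.29 and SAMD9 at 1.67, and these ranges did not overlap. XAF1 at 0.0108, SAMD9L at 0.000698 and RTP4 at 0 CPM per kilobase could not be ordered at this depth, since all 3 genes had a library at 0 reads. The order from IFI6 over IFI35 to SAMD9 was the same in both groups.

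**Figure D3:**
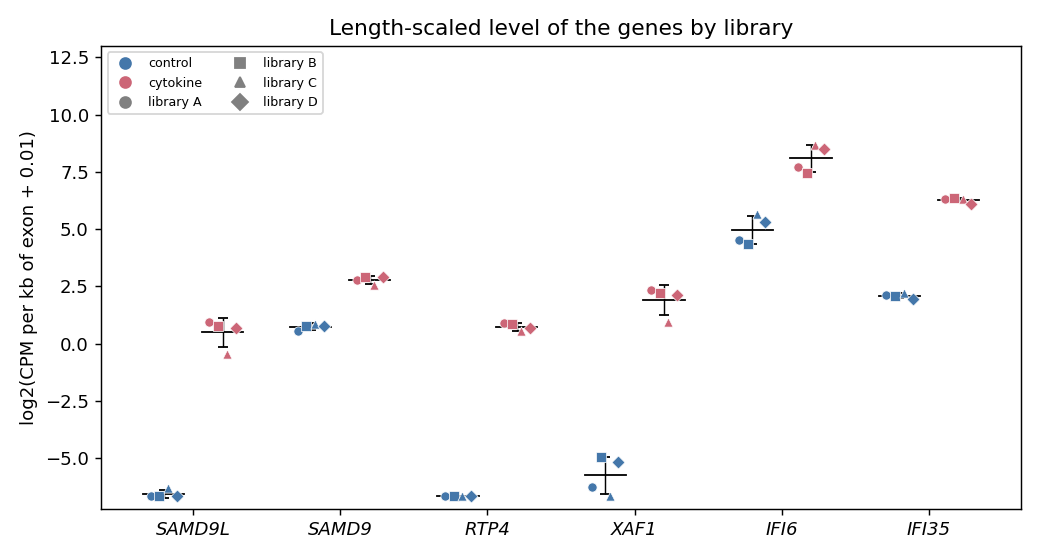
Level per kilobase of annotated exon, as log2(CPM per kilobase + 0.01), of the 6 restriction factors in 4 control (blue) and 4 cytokine (red) libraries, with shapes for pairs A to D and black bars for the mean and SD. IFI6 lies highest in both groups, and the cytokine points of RTP4 and SAMD9L overlap.

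The 6 genes differed in how their cytokine libraries were ordered. Library C was the lowest of the 4 cytokine libraries for SAMD9L, SAMD9, RTP4 and XAF1. Its value over the mean of the other 3 was 0.418 for SAMD9L, 0.407 for XAF1, 0.792 for SAMD9 and 0.821 for RTP4. It was 1.03 for IFI35 and 1.63 for IFI6, where library C was the highest. Among all genes called higher, library C was the lowest in 27.5%, the median of this ratio was 1.05, and 2.03% had a ratio at or below that of SAMD9L. Without cytokine library C the 6 genes remained called.

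**Figure D4:**
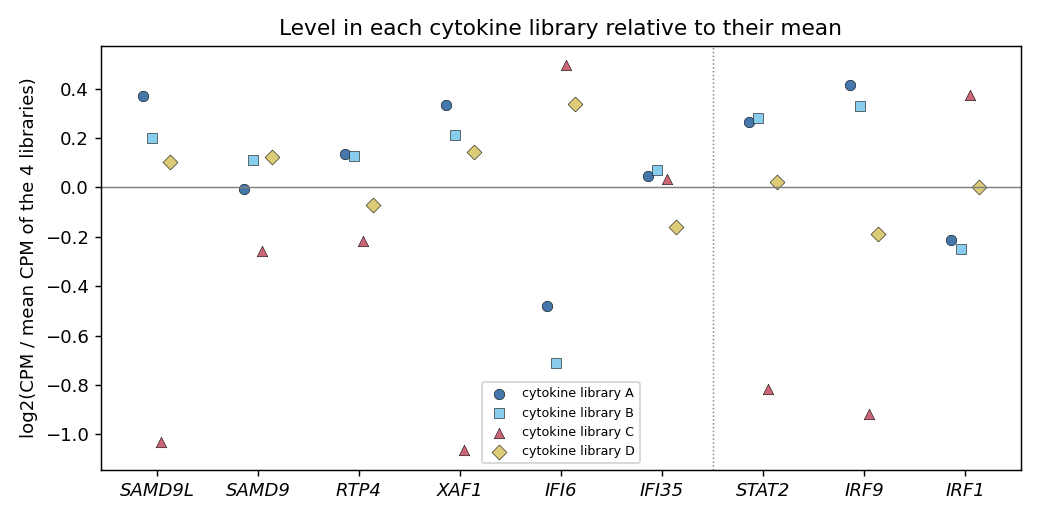
CPM in each cytokine library over the mean of the 4 cytokine libraries, on a log2 scale, for the 6 restriction factors (left) and STAT2, IRF9 and IRF1 (right), with shapes and colours for libraries A to D. Library C is the lowest point for SAMD9L, SAMD9, RTP4, XAF1, STAT2 and IRF9, and the highest for IFI6 and IRF1.

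Whether the response differed between the column-name endings 21 and 22 was tested as an interaction in limma. Of all genes 0.0303% were called, which is 5 genes by limma and 5 by edgeR. None of the 6 restriction factors was called by limma or edgeR, and none had an unadjusted p under 0.05 in limma. The difference of the log2 fold changes, 22 minus 21, ranged from -0.87 (SE 0.57) for SAMD9L to -0.03 (SE 0.21) for IFI6, with an adjusted p of 0.999 for each. The SE was 0.56 for RTP4 and 0.69 for XAF1, with 2 libraries in each arm. A fit with the column-name pair as a replicate block called 68 genes by limma and 59 by edgeR. It called none of the 6 restriction factors, and the smallest unadjusted p among them in limma was 0.0997, for SAMD9L. In edgeR without the block 4 of the 6 differences were negative, beside 6 in limma, where 68.4% of all genes had a negative difference.

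The control level was compared between the endings in the same fit, where 18.4% of all genes were called. IFI6 was the 1 restriction factor called, with control means of 18.8 CPM in ending 21 and 39.1 CPM in ending 22. Its log2 difference was 1.05 (limma, SE 0.15, adjusted p = 0.00269). Cytokine means of IFI6 were 166 CPM in ending 21 and 335 CPM in ending 22. Without control library A the log2 difference was 1.13 with an adjusted p of 0.0546, which is not called. Control libraries A and B were more alike than C and D, and the fit assumes 1 spread for both endings. What the endings stand for is not given in the sources used here.

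Of 4 partner genes of these factors, 1 was called higher and none lower, with a median log2 fold change of 0.50. NMI, the partner of IFI35, rose from 2.71 ± 0.719 to 40.8 ± 5.36 CPM (SD, n = 4), and its log2 fold change was 3.89 (limma, adjusted p = 1.21e-07). XIAP, to which XAF1 binds, was at 36.9 ± 5.61 and 48.2 ± 7.94 CPM (SD, n = 4), with a log2 difference of 0.38 (limma, adjusted p = 0.0783). With TMM scaling XIAP was called, at 0.54 (limma, adjusted p = 0.00858). HSPA5, which acts with IFI6, was at 333 ± 105 and 503 ± 140 CPM (SD, n = 4), with a log2 difference of 0.61 (limma, adjusted p = 0.0805), while TMM scaling gave 0.76 (adjusted p = 0.0221), a call. With the column-name pair as a replicate block HSPA5 was called by limma at 0.61 (adjusted p = 1.68e-06). XIAP was called by edgeR with this block at 0.54 (adjusted p = 2.64e-05), and by edgeR without it.

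A list of 10 relatives, by family, domain or name, of these factors and of their partners had 7 tested genes, of which 3 were called higher and 1 lower, with a median of 0.14. It holds BIRC2 and BIRC3 as relatives of XIAP, and SAMHD1, which shares the SAM domain but is no paralogue of SAMD9. IFI27, a relative of IFI6, rose from 0.209 ± 0.171 to 2.59 ± 0.265 CPM (SD, n = 4). It was at most 0.402 CPM in control libraries, so the authors' filter could list it only through other libraries. BIRC3, which shares the baculoviral repeat with XIAP and is an NF-κB target, rose from 0.764 ± 0.144 to 6.27 ± 2.60 CPM (SD, n = 4). BIRC2 was at 18.6 and 20.3 CPM and IFI27L2 at 9.42 and 9.14 CPM in control and cytokine libraries, and neither was called. RTP5, named after its values were seen, fell from 2.50 ± 0.378 to 0.90 ± 0.407 CPM (SD, n = 4), opposite to RTP4, with a log2 fold change of -1.47 (limma, adjusted p = 0.00487).

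Among 45 other restriction factors 39 were tested, of which 35 were called higher and 1 lower, with a median log2 fold change of 2.63. Over all genes 9.52% were called higher. Some of these factors, such as IFITM3 and SP100 at up to 0.0398 and 0.0391 CPM, were under the authors' filter in every control library. They could be listed only through other libraries, so the filter favours this count and this median. BST2, which tethers budding virions to the cell, had a log2 fold change of 9.58 (limma, adjusted p = 4.32e-06). IFIT3, which takes part in binding viral RNA, had 8.63 (limma, adjusted p = 4.49e-07). SLFN13, a tRNA-cleaving nuclease, was at 73.9 ± 12.9 and 56.4 ± 14.3 CPM (SD, n = 4) and was not called (adjusted p = 0.142). A promoter window was matched for 26 of these factors, and 65.4% of them held the ISRE core, beside 3 of the 6 genes described above. The GAS letters were held by 34.6% and the kB motif by 23.1% of the 26, beside 1 of the 6 genes for each. Of the 11736 tested genes with a window, 8.38% held the GAS letters and 17.26% the kB motif. Of the 1139 called higher, 12.29% held the GAS letters and 20.98% the kB motif. The kB share of the 26 was thus close to that of all genes called higher.

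All 17 genes of interferon signalling were tested, and 12 were called higher and none lower, with a median of 1.52. Of the 12, SOCS3 was at most 0.0391 CPM in control libraries, so it could be listed only through other libraries. IRF1, a transcription factor induced by IFNγ, rose from 11.3 ± 1.05 to 755 ± 157 CPM, and SOCS1, a feedback inhibitor of JAK kinases, from 1.17 ± 0.352 to 61.7 ± 11.5 CPM (SD, n = 4). The kinase TYK2 was at 116 ± 12.5 and 86.0 ± 6.46 CPM, a log2 difference of -0.43 that did not pass the size threshold, and JAK1 was at 82.3 ± 11.9 and 87.3 ± 16.9 CPM (SD, n = 4).

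The nearest tested gene on each side of the 6 restriction factors gave 10 genes that are not themselves among them. None of these was called higher and 1 was called lower. Over all 16525 genes 9.52% were called higher and 2896 genes were called lower, so among 10 genes these counts are no result about the neighbours. HEPACAM2, 40217 bases from SAMD9L, fell from 79.5 ± 27.6 to 33.2 ± 7.71 CPM (SD, n = 4), and its log2 fold change was -1.22 (limma, adjusted p = 0.00378). The other 9 were not called, although CDK6, on the other side of SAMD9, was called with the replicate block at 1.13 (limma, adjusted p = 0.0110), by DESeq2 at 1.44 (adjusted p = 0.0335) and without cytokine library B at 1.41 (limma, adjusted p = 0.0496). VAT1 lies 149 bases from IFI35 and was at 245 ± 27.8 and 200 ± 40.2 CPM (SD, n = 4). SST, which encodes somatostatin, is the nearest tested gene above RTP4 and was at 1219 ± 868 and 1216 ± 766 CPM (SD, n = 4). Coordinates of GENCODE 29 on GRCh38 place SAMD9L at chr7:93130055-93148369 and SAMD9 at chr7:93099513-93118023, both on the minus strand. RTP4 lies at chr3:187368332-187372076, XAF1 at chr17:6755447-6775647 and IFI35 at chr17:43006725-43014456 on the plus strand, and IFI6 at chr1:27666061-27672218 on the minus strand.

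For each restriction factor the 2 genes of most similar profile were found as the smallest root mean square difference of log2(CPM + 0.1), after centring each gene, over the 8 libraries. They were BISPR (0.46) and CD7 (0.46) for SAMD9L, and PARP12 (0.10) and CCDC68 (0.12) for SAMD9. They were EPSTI1 (0.13) and PARP9 (0.14) for RTP4, and CTSS (0.45) and GBP4 (0.47) for XAF1. For IFI6 they were GADD45B (0.29) and DRAM1 (0.30), and for IFI35 MEGF11 (0.083) and B2M (0.15). Among the restriction factors themselves SAMD9L and XAF1 were at 0.56 and RTP4 and IFI35 at 0.32. With 0 control reads of RTP4, and 1 of SAMD9L, their distance to any other gene is set by the number added before taking logs. The fold of RTP4 fell from 4.75 to 1.84 on the log2 scale when 1 was added in place of 0.1, and that of IFI35 was 4.16 and 4.03. The matches of RTP4 and SAMD9L therefore hold for this scale alone. XAF1, with 14 control reads in all, fell from 7.27 to 4.59 by the same change. Its matches and its distance to SAMD9L thus depend on the added number as well. All of these values describe 8 libraries that fall into 2 groups.

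The libraries held 36577438 to 40117636 reads on listed genes, of library totals of 46767972 to 51145634 reads. The authors scaled to the totals, so that 1 read was worth 0.0196 to 0.0214 CPM. All 8 beta-cell markers were listed, with a summed level of 23209 to 35841 CPM in control and 28657 to 52409 CPM in cytokine libraries. Most of this sum was CHGA, at 19221 and 25501 CPM on average, which was not called. None of the 8 was called higher and 3 were called lower, namely PDX1 at -0.78, SLC30A8 at -1.20 and G6PC2 at -2.60 on the log2 scale, named after their values were seen. The other 5 were not called. They were IAPP at 0.93 (limma, adjusted p = 0.0765), PCSK1 at 0.42, CHGA at 0.39, NKX6-1 at 0.39 and INS at -0.17. The median of the 8 was 0.11. Of 9 leukocyte markers 1 was listed, CD14, at 1.07 to 3.26 CPM in control and 1.23 to 1.95 CPM in cytokine libraries. Of 6 endothelial and fibroblast markers 2 were listed (summed level 3.56 to 5.30 and 4.29 to 6.41 CPM), and of 5 exocrine markers 2 (88.2 to 167 and 84.6 to 166 CPM). The exocrine sum was mostly KRT19, at 105 and 106 CPM on average, while CPA1 was called lower, from 8.41 to 4.04 CPM (log2 -1.06, limma, adjusted p = 0.00201). The part of other cells in the results was not tested. In such bulk samples a change in RNA per cell and a change in the share of cells that express a gene cannot be told apart.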

How the data were processed

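RNA of 4 control and 4 cytokine-treated EndoC-βH5 libraries was prepared with a strand-specific mRNA kit. The authors aligned reads to GRCh38 with TopHat2 2.1.1, counted them with HTSeq 0.9.1, filtered them (over 0.5 CPM in 4 or more samples) and deposited CPM values, per the submitters' processing notes and the methods. The methods name Ensembl 107; lengths and positions here are from GENCODE 29 (16167 of 16525 genes matched). Because of the authors' filter, a gene of the table under 0.5 CPM in all control libraries had to be present in other samples. Of the value columns, 4 were not used. In each library 100% of values were whole multiples of 1 read (tolerance 0.1 read), so reads were recovered. Library totals were 46767972 to 51145634 reads.

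The R 4.3.3 package limma 3.58.1 was fitted to log2(CPM + 0.1), with a trend on intensity and no block. Alternatives were TMM and median-of-ratios scaling, pseudocounts of 0.5 and 1, a mean of at least 1 CPM, CPM per kilobase, edgeR 4.0.16 and DESeq2 1.42.0 on recovered reads, and leaving out each library. With edgeR 2149 genes were called higher and 1918 lower. Columns carry no replicate number of the labels. Deviations from group means correlated by 0.46, 0.50, 0.75 and 0.68 within the column-name pairs A to D. Control A with cytokine library B gave 0.45 and control B with cytokine library A gave 0.49, so A and B are told apart from C and D but not from each other. The mean chi-square per gene between the reads of libraries A and B was 13.4 in control and 6.06 in cytokine. Between any other libraries of a group it was 75.2 to 296 in control and 91.1 to 253 in cytokine. A and B were thus far more alike than the rest, although the fits count all libraries as equal replicates. A replicate block by pair was added after seeing the data. Scripts were tested on simulated data. The ratio of IFI44L to IFI44 was planned and not analysed here. The members and gene lists were chosen with earlier results of these data known. Per list, the 2 called genes with the largest rise and the 2 not called or lower with the highest mean were named, with the nearest tested genes on the chromosome and the 2 nearest profiles. A few genes of these lists are left out of the text. Tables and plots used scipy 1.17.1, numpy 2.4.6, matplotlib 3.10.9 and pandas 2.3.3 under Python 3.11.15.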

Additional observations from a re-analysis of the deposited data

Results flagged for a closer look

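In SAMD9L, control library C stood apart from the other control libraries with 0.0199 CPM, which is 1 read against 0 reads in the others. A single read in 1 of 4 libraries always exceeds the limit used, so this gap carries no information. In IFI35, cytokine library D was low at 137 CPM. Beside IFI35, RPL27 was high in cytokine library C at 133 CPM. SOCS1 was high in control library B at 1.69 CPM, and TYK2 was low in cytokine library C at 76.4 CPM. These 5 gaps exceeded the critical value of Dixon's test for 4 samples, in 63 groups tested, and chance gives about 1 in 20.

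The cytokine effect on BST2 differed between the column-name endings, by 4.17 on the log2 scale, 22 minus 21 (limma interaction, adjusted p = 8.77e-05). BST2 was at 1.05, 1.48, 0.0398 and 0.0587 CPM in control libraries A to D, the last 2 being 2 and 3 reads. These last 2 levels are below the 0.1 CPM added before taking logs, so the size of the difference depends on that number. Each arm held 2 libraries, and A and B were far more alike than the rest. In cytokine libraries A to D it was at 243, 241, 560 and 415 CPM.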

How the results depend on the processing

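All 6 restriction factors were called higher in each of 18 alternatives, and the other restriction factors called numbered 33 to 35. With the column-name pair as a replicate block, 6 of the 6 were called by limma and by edgeR, as were 35 of the other restriction factors. Among the named genes the block changed the call of HSPA5 in limma and of CDK6 in limma and edgeR, and of no other. XIAP stayed uncalled in limma with the block, at 0.38, and was called by edgeR with and without it. The count of restriction factors whose control level differed between endings was 1, and leaving out 1 library gave 0 to 1. It was 0 without control library A, where 68 genes in all were called in place of 3033, with 1 library left in that arm and assumed to vary like the others. Without control library C it was 1, with 1081 genes called. The interaction called 5 genes in all and 3 to 11 with 1 library left out, the 11 being without cytokine library D, the 3 without control library B or cytokine library A or B, and none of them among the 6. XIAP and HSPA5 were not called in the reported fit but were called with TMM scaling, median-of-ratios scaling, edgeR and DESeq2. CDK6 was called with DESeq2 and without cytokine library B. The fold changes of SAMD9L, RTP4 and XAF1 depend on the pseudocount because their control libraries hold 1, 0 and 14 reads in all. Depth limits any ordering of these 3 genes in control cells.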

Other observations

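STAT2 and IRF9, parts of the complex that binds the ISRE, were singled out after their values were seen because cytokine library C was low for them. STAT2 was at 451, 456, 213 and 381 CPM in cytokine libraries A to D, and at 106, 94.6, 61.4 and 91.0 CPM in control libraries A to D. IRF9 was at 45.0, 42.5, 17.9 and 29.7 CPM in cytokine libraries A to D, and at 2.95, 2.82, 0.936 and 1.49 CPM in control libraries A to D. The value of cytokine library C over the mean of the other 3 was 0.496 for STAT2 and 0.458 for IRF9, beside 0.418 for SAMD9L and 0.407 for XAF1. It was 1.43 for IRF1. Library C was the lowest cytokine library for 15 of the 35 other restriction factors called higher, and none of the 39 tested had a ratio at or below that of SAMD9L. The cause was not tested.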
